A study of Mus musculus with 24 samples.

Results

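The *Vegf* ligands and their receptors were examined in RNA-seq counts of mouse liver macrophages, hepatic endothelial cells (ECs) and whole livers. The members are 9 genes taken by symbol from the 4 count tables: the ligand genes *Vegfa*, *Vegfb*, *Vegfc* and *Pgf*, the receptor genes *Kdr*, *Flt1* and *Flt4*, and the coreceptor genes *Nrp1* and *Nrp2*. All 9 were found in every table, out of 48574 symbols. The rule takes them by name and uses no value. *Vegfd*, listed as *Figf* in the tables, is not a member. The 24 libraries came from C57BL/6 mice (C57BL/6J in the study's methods) and fall into 8 groups of 3. *Gdf2/Bmp10* HSC-KO mice (labelled Bmp9/10-HSC-KO, *Gdf2* being the gene of BMP9) carried floxed *Gdf2* and *Bmp10* alleles together with *Lrat* Cre, which acts in hepatic stellate cells (HSCs), so other cells kept both genes. Their macrophages, ECs and livers were each compared with those of control mice. A separate pair of macrophage groups came from *Smad4* floxed mice with *Vav1* Cre, which acts in all hematopoietic cells (Smad4 cKO), and from their floxed controls (labelled Smad4FF). The sort gates were CD45+Ly6C-F4/80+CD64+ for macrophages and CD45-CD31+ for ECs, from mice of 8 to 10 weeks, and livers were taken at 12 weeks. In the labels 3 codes, 1 control and 2 HSC-KO, are shared by a macrophage and an EC library, and they may mark the same mouse.

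VEGF ligands are secreted dimers that act on receptor tyrosine kinases of the endothelium. VEGFA binds VEGFR2 (gene *Kdr*), the main signalling receptor of blood vessels, and VEGFR1 (*Flt1*), which binds VEGFA tightly but signals weakly and can act as a decoy. VEGFB and placental growth factor (PlGF, gene *Pgf*) bind VEGFR1. VEGFC binds VEGFR3 (*Flt4*), the receptor of lymphatic vessels that liver sinusoidal ECs also carry, and neuropilins (*Nrp1*, *Nrp2*) bind both VEGFs and class 3 semaphorins without a kinase of their own. In the liver, hepatocytes are a known source of VEGFA, and VEGF signalling is known to maintain the fenestrated sinusoidal endothelium.

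Sequence upstream of the transcription start is shown for 4 members whose levels differ between groups below: the receptor genes *Flt1* and *Kdr*, the ligand gene *Vegfb* and the coreceptor gene *Nrp2*. The sequences are RefSeq promoter windows of build GRCm38.p6 (250 bases before to 50 after the start), cut back to the bases outside every exon of GENCODE vM21, and read 5′ to 3′ on the strand of the gene. *Flt1* is chr5:147726012-147726261 (minus strand), *Kdr* chr5:75978459-75978705 (minus), *Vegfb* chr19:6987652-6987901 (minus) and *Nrp2* chr1:62703067-62703284 (plus). Capitals mark matches on either strand to GGGCGG (the GC box), TATAAA (the TATA box), TGACGTCA (the cAMP response element), GGCGCC or ACGTG, and matches that overlap were counted separately.
Flt1: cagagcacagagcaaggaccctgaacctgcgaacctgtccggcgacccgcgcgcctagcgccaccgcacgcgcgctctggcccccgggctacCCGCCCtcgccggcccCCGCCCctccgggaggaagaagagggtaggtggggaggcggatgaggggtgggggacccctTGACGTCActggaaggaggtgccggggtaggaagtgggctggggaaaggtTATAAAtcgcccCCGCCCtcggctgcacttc
Kdr: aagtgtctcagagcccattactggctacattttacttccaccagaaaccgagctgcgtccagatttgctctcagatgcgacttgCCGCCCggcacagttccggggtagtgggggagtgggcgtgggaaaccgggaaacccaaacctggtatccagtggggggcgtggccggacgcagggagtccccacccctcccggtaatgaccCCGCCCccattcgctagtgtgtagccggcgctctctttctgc
Vegfb: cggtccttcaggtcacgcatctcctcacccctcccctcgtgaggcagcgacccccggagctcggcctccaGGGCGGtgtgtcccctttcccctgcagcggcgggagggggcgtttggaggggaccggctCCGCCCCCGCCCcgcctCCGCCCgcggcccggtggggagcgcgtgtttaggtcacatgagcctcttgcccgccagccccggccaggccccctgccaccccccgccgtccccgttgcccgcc
Nrp2: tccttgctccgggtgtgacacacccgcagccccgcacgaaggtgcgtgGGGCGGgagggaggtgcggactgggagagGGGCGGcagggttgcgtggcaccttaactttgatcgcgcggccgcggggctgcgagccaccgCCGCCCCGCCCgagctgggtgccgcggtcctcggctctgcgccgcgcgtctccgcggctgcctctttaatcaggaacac
All 9 members had a window in this table, and all 9 held GGGCGG in at least 1 window, although 1 of the *Pgf* windows held none. It stood in 35.7% of 32851 windows of 300 bases. The member windows had a GC content of 59.3 to 75.3%, against a median of 52.7% over all windows, and the letters of this motif are G and C only. The *Flt1* window held both TATAAA and TGACGTCA, found in 13.6% and 1.79% of all windows, and no other member held either. GGCGCC stood in windows of *Vegfc*, *Flt4* and *Pgf* (11.9% of all windows) and ACGTG in 1 of the *Vegfa* windows (19.6%). These matches are of letters only and were not tested for binding.

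The libraries held 60911527 to 110879155 counts, with 17480 to 21597 genes at 1 count or more. The deleted genes followed the labels. In livers the log2 fold changes in HSC-KO were -2.55 for *Gdf2* and -4.07 for *Bmp10* (adjusted p = 0.013 and 0.0066), and *Smad4* fell by 1.39 in the Smad4 cKO macrophages (adjusted p = 0.0023). A marker list of 8 sinusoidal EC genes summed, in CPM (counts scaled to the library total), to between 143088 and 219658 in control ECs and to 1182 to 48245 in HSC-KO ECs. The HSC-KO EC library of replicate 1 kept the most of it, 48245 CPM. In livers the same sum was 492 to 637 CPM in controls and 35.3 to 43.2 in HSC-KO, while 12 pan-endothelial genes summed to 441 to 512 and 403 to 453. That sum joins genes that went opposite ways in livers without overlap: *Tie1*, *Esam*, *Robo4*, *Sox18* and *Pecam1* (36.2 to 44.7 CPM in controls, 68.2 to 90.6 in HSC-KO) were higher in HSC-KO, and *Tek*, *Ptprb* (108 to 153, 53.1 to 65.8), *Cldn5* and *Eng* were lower. In ECs *Tie1*, *Esam*, *Robo4*, *Ecscr* and *Pecam1* were higher and *Tek*, *Ptprb* and *Eng* lower, again without overlap. Of the 5 lymphatic markers in ECs, *Prox1* was at 1.00 to 2.32 CPM in all 6 libraries, *Pdpn* went from 0.942 to 2.07 CPM in controls to 6.62 to 8.82 in HSC-KO, *Ccl21a* from 0.753 to 1.55 to 11.7 to 20.6, and *Lyve1*, also a sinusoidal marker, from 549.7 to 634 to 4.54 to 8.12. *Reln* overlapped, at 0.424 to 5.13 and 1.64 to 2.80 CPM, and the 5 genes summed to 559 to 643 CPM and to at most 41.7 CPM. Macrophage markers summed to 56.4 to 74.1 CPM in control ECs, 5.96 to 8.36 in HSC-KO ECs and 47753 to 50449 in control macrophages. In bulk samples fewer cells of a type and less RNA per cell cannot be told apart. *Xist*, transcribed from the inactive X chromosome of females, had 12 counts in HSC-KO liver replicate 3 and at least 31392 in the other livers, and it differed within the macrophage and EC groups of the HSC-KO experiment too. The study's methods call the 3 samples of each group biological replicates, and the labels give each a code that is not repeated within its group.

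Levels are first described in the control groups, as CPM scaled by TMM over all 24 libraries, with RPKM (CPM per kilobase of merged exons) where genes are compared. The ligands were split between compartments. *Vegfa* (chr17:46016993-46032369) was at 186, 179 and 205 CPM in control livers and at 1.00, 2.21 and 1.14 CPM in control ECs. In control macrophages it had 0, 0 and 7 counts. A count of 0 allows up to 0.0514 CPM in these libraries, counting error only. The control livers thus held more *Vegfa* than the ECs in every library, by 7.10 on the log2 scale (SE 0.35, adjusted p = 1.4e-06). *Vegfb* (chr19:6982473-6987651) was spread more evenly, at 24.3 ± 7.16 CPM in ECs, 15.8 ± 2.63 in livers and 6.80 ± 0.975 in macrophages (SD, n = 3). *Vegfc* (chr8:54077606-54187096) was at 16.9 ± 6.81 CPM in ECs (SD, n = 3), at 3.77 to 4.10 CPM in livers and at no more than 0.103 CPM in control macrophages. *Pgf* (chr12:85166635-85177790) stayed under 0.445 CPM or at that level in every control library, the Smad4FF libraries included.

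The receptors were endothelial. Control ECs held *Flt4* (chr11:49609263-49652739) at 3036, 5339 and 4867 CPM, *Kdr* (chr5:75932827-75978458) at 2514, 2721 and 2431 CPM, and *Flt1* (chr5:147561604-147726011) at 602, 567 and 555 CPM. Per kilobase the order in control ECs was *Flt4* at 536 ± 148 RPKM, *Kdr* at 283 ± 16.5 and *Flt1* at 42.6 ± 1.83 (SD, n = 3). Against control livers the 3 genes were higher in ECs by 6.27 (*Flt4*), 4.51 (*Kdr*) and 4.52 (*Flt1*) on the log2 scale, with adjusted p = 2.6e-06, 1.8e-06 and 6.1e-07. Both neuropilins were also highest in ECs among the controls. *Nrp1* (chr8:128358604-128503363) was at 1909 ± 205 CPM in ECs, 167 ± 13.4 in macrophages and 109.6 ± 8.85 in livers (SD, n = 3), so control macrophages held more of it than livers (log2 difference 0.61, SE 0.14, adjusted p = 0.0057). *Nrp2* (chr1:62703285-62818695) was at 340.4 ± 64.5 CPM in ECs, 34.1 ± 3.27 in livers and 4.21 ± 2.07 in macrophages.

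Of the 8 members tested between control ECs and control macrophages all 8 were higher in ECs and passed both thresholds used here (adjusted p under 0.05 and an absolute log2 fold change over 1), as did 36% of all genes tested in either direction and 18% with ECs higher. Between ECs and livers 7 of 8 passed (59.9% of all genes), all but *Vegfa* higher in ECs (26.6% of all genes), and *Vegfb* differed by 0.56 (adjusted p = 0.055). Between control macrophages and livers 5 of 8 passed, all lower in macrophages (60.5% of all genes, and 33.5% in this direction). Control macrophages also differed between the experiments: *Vegfc*, *Flt1* and *Nrp2* were lower in the HSC-KO experiment's controls than in Smad4FF macrophages, by 3.96, 2.95 and 2.59 on the log2 scale, where 12.5% of all genes passed and 7.17% in this direction. The pan-endothelial sum was 64.5 to 281 CPM in these controls and 545 to 1966 in Smad4FF, and its part in the values was not tested. These calls moved with single libraries, the count of 3 becoming 1 without Smad4FF replicate 1 or 3 and 5 without control replicate 1.

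**Figure D1:**
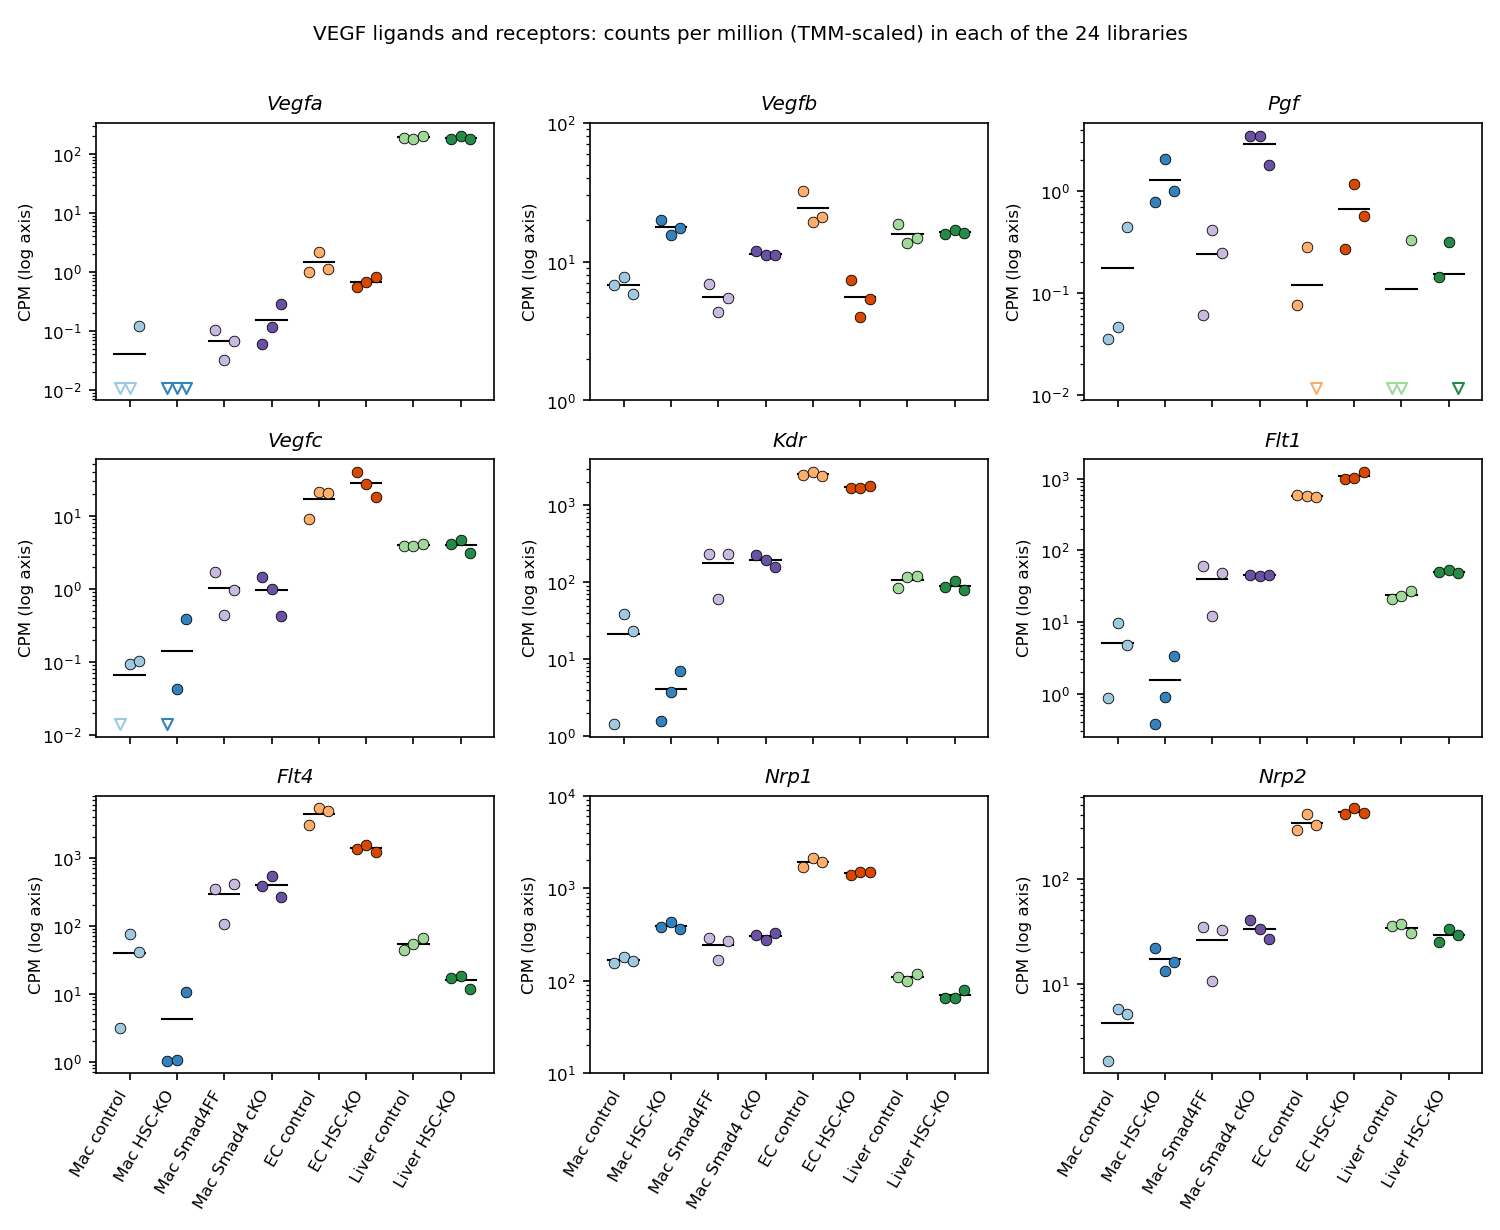
CPM of each member (log axis) in the 24 libraries, by group. Points are libraries, horizontal bars group means, and open triangles libraries with 0 counts, drawn at an arbitrary height. The receptors and *Nrp1* were highest in the EC libraries and *Vegfa* in the livers, where it lay between 176 and 205 CPM in all 6.

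Over all 8 groups the order of means placed ECs at the top for *Flt4*, *Kdr*, *Flt1*, *Nrp1*, *Nrp2* and *Vegfc*. For *Flt4*, *Kdr*, *Flt1*, *Nrp1* and *Nrp2* the libraries of the leading EC group did not overlap those of the other EC group, and the lowest EC library lay above every other library. *Nrp1* was lowest in livers, with control and HSC-KO livers apart. *Vegfb* followed another order: control ECs (24.3 CPM), HSC-KO macrophages (17.7), HSC-KO livers (16.3) and control livers (15.8) overlapped one with the next, and HSC-KO ECs (5.57 CPM) lay with control and Smad4FF macrophages at the bottom. For *Pgf* neighbouring groups overlapped throughout the order, from Smad4 cKO macrophages (2.92 CPM) down to control livers (0.111 CPM).

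The comparisons of knockout with control ask how the VEGF system differs when stellate cells lack *Gdf2* and *Bmp10*, or blood cells lack *Smad4*. Members that passed both thresholds are called differentially expressed genes (DEGs) here. There were 3 DEGs among the members in HSC-KO macrophages (7 tested, all 3 higher, where 11.7% of all genes were DEGs and 6.32% DEGs that were higher), 2 in Smad4 cKO macrophages (8 tested, both higher, against 5.43% and 2.76%), 2 in HSC-KO ECs (9 tested, both lower, against 13.7% of all genes and 6.01% that were lower) and 2 in HSC-KO livers (8 tested, 2.48%). *Vegfa* in both macrophage comparisons, *Vegfc* in HSC-KO macrophages and *Pgf* in livers had too few counts to be tested. With so few members these shares are descriptions.

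**Figure D2:**
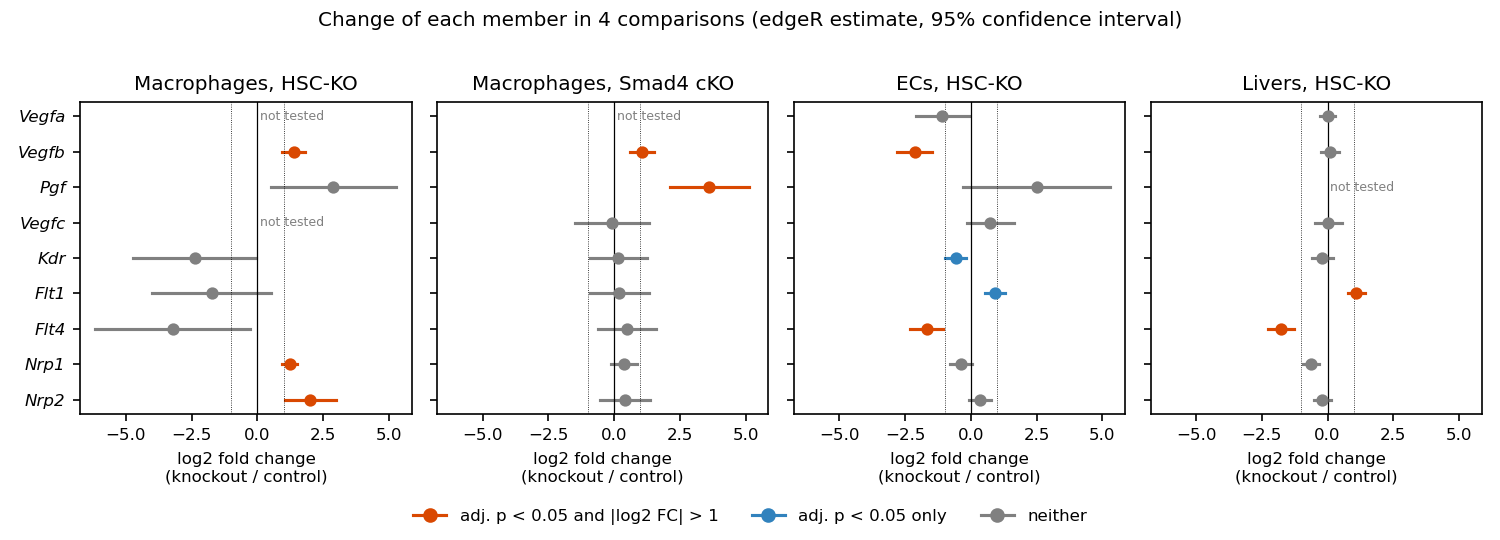
Log2 fold change of each member, knockout over control, with its 95% confidence interval from edgeR, in 4 comparisons of 3 against 3 libraries. Orange marks members past both thresholds, blue those past the adjusted p alone, grey neither, and dotted lines stand at a log2 fold change of 1 in either direction. *Vegfb* was higher in both macrophage comparisons (1.38 and 1.06) and lower in ECs (-2.13).

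In ECs of HSC-KO mice the receptor genes moved in opposite directions. *Flt4* was at 3036, 5339 and 4867 CPM in controls and at 1357, 1562 and 1231 CPM in HSC-KO. Every HSC-KO library lay below every control, and *Flt4* fell 3.21-fold (log2 fold change -1.68, SE 0.27, adjusted p = 0.0048). *Flt1* went from 602, 567 and 555 CPM to 981, 1024 and 1246 CPM. The groups did not overlap, and *Flt1* was 1.88-fold higher (log2 0.91, SE 0.17, adjusted p = 0.0079), which passed the adjusted p but not the size threshold. Scaled by library size alone its log2 fold change was 1.21 and it was a DEG, while *Kdr*, described next, gave -0.28 (adjusted p = 0.26). *Kdr* was at 2514, 2721 and 2431 CPM in controls and at 1675, 1686 and 1782 in HSC-KO, again without overlap. It was 1.49-fold lower (log2 -0.58, SE 0.17, adjusted p = 0.049), and the adjusted p was 0.081 to 0.12 when any 1 of the 6 libraries was left out. The HSC-KO library that kept the most sinusoidal marker RNA (replicate 1) held *Flt4* at a level between those of the other HSC-KO libraries, and without it *Flt4* gave -1.66 and *Flt1* 0.99 (adjusted p = 0.011 and 0.0077). When all 24 libraries shared 1 fit none of the receptor genes passed the adjusted p, which was 0.19 for *Flt4*, 0.38 for *Flt1* and 0.69 for *Kdr*. Other marker sums differed between the same groups without overlap: pan-endothelial genes were at 12675 to 13948 CPM in controls and 9853 to 11355 in HSC-KO, stellate and mural markers at 169 to 257 and 120.4 to 149.7, lymphocyte markers at 0.353 to 0.690 and at most 0.292, and neutrophil markers at no more than 0.0432 and 0.988 to 1.12. Of the neutrophil genes only *Csf3r* had counts in ECs. The part of these lists, and of the sinusoidal, lymphatic and macrophage sums given above, in the receptor values was not tested.

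Among the ligands in ECs *Vegfb* was lower in HSC-KO, at 7.35, 3.98 and 5.37 CPM against 32.5, 19.4 and 21.1 CPM in controls. The groups were far apart, and *Vegfb* fell 4.38-fold (log2 -2.13, SE 0.28, adjusted p = 0.0021). *Vegfc* was at 39.5, 27.2 and 18.0 CPM in HSC-KO and overlapped the controls (log2 0.73, 95% interval -0.16 to 1.63, adjusted p = 0.24). *Vegfa* was low, with 93, 157 and 97 counts in controls and 60, 55 and 77 in HSC-KO (log2 -1.09, adjusted p = 0.13). *Pgf* had 7, 20 and 0 counts in control ECs and 29, 96 and 53 in HSC-KO ECs (log2 2.50, SE 1.20, adjusted p = 0.20). Without control replicate 2 *Pgf* gave 4.08 and *Vegfa* -0.65, neither of them called. The neuropilins did not pass the test in ECs. *Nrp1* was at 1692, 2101 and 1932 CPM in controls and at 1404, 1514 and 1518 CPM in HSC-KO, where the groups did not overlap (log2 -0.37, adjusted p = 0.19). *Nrp2* gave 0.34 (95% interval -0.07 to 0.75, adjusted p = 0.23). With TMM factors of the 6 EC libraries alone, 6 of the 9 members had groups that did not overlap, as had 40.4% of all genes tested, and *Nrp2* was apart only in the scaling over all 24 libraries.

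Whole livers showed *Flt4* and *Flt1* apart in the same directions. *Flt4* was at 44.3, 53.3 and 66.2 CPM in control livers and at 17.3, 18.1 and 11.8 in HSC-KO livers. It fell 3.40-fold (log2 -1.76, SE 0.21, adjusted p = 0.0066). *Flt1* was at 21.2, 23.3 and 27.5 CPM in controls and at 50.6, 52.9 and 47.6 in HSC-KO, and it rose 2.15-fold (log2 1.10, SE 0.13, adjusted p = 0.0066). Neither pair of groups overlapped. *Kdr* was at 84.6, 117 and 119.6 CPM in controls and at 87.6, 104 and 80.6 in HSC-KO, with overlap (log2 -0.21, 95% interval -0.61 to 0.20, adjusted p = 0.72). Set on the summed pan-endothelial genes of the same library, whose members differed in direction as given above, *Flt4* was at 100.3 to 129 CPM per 1000 pan-endothelial CPM in control livers and at 28.5 to 42.8 in HSC-KO livers, and *Flt1* at 48.0 to 53.7 and 115 to 126. Both liver calls ended when all 24 libraries shared 1 fit (adjusted p = 0.41 for *Flt4* and 0.63 for *Flt1*), with log2 fold changes of -1.81 and 1.05. Leaving out any 1 of the 6 liver libraries kept both calls, at -1.89 to -1.59 and 1.03 to 1.23. Other marker sums moved in livers as well, without overlap: macrophage markers from 508 to 811 CPM in controls to 120.3 to 205 in HSC-KO, stellate and mural markers from 498 to 644 to 739.6 to 874, lymphatic markers from 183 to 224 to 227 to 250.3, and cholangiocyte markers from 65.1 to 101 to 30.3 to 42.4. In the lymphatic sum *Reln*, also on the stellate and mural list, went from 60.9 to 108 CPM to 148 to 180.1. *Ccl21a* and *Pdpn* were higher at no more than 2.06 CPM. *Lyve1* fell from 13.0 to 17.0 CPM to at most 0.362, and *Prox1* overlapped. The cholangiocyte sum was mostly *Spp1* (57.2 to 87.9 and 23.6 to 34.3 CPM). Neutrophil markers went from at least 7.81 CPM to at most 4.71 and lymphocyte markers from 5.41 to 8.34 to 1.03 to 3.55. Their part in the receptor values was not tested.

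The ligand genes gave no call in livers. *Vegfa*, the most abundant member there, was at 186, 179 and 205 CPM in control livers and at 176, 201 and 179.9 CPM in HSC-KO livers (log2 0.00, 95% interval -0.28 to 0.28, adjusted p = 1). That interval leaves out changes of the size seen for *Flt1* and *Flt4*. *Vegfb* gave 0.09 (95% interval -0.25 to 0.43) and *Vegfc* 0.03 (-0.49 to 0.56). *Pgf* had 0, 0 and 25 counts in control livers and 9, 23 and 0 in HSC-KO. *Nrp1* was at 111, 100.3 and 118 CPM in controls and at 64.7, 64.5 and 79.3 in HSC-KO. The groups did not overlap, and the adjusted p was 0.057 (log2 -0.62, SE 0.13). *Nrp2* gave -0.20 (95% interval -0.53 to 0.13). In livers 3 of the 8 members tested had groups that did not overlap, against 19.7% of all genes.

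The make-up of the receptor transcripts was then compared within each library, where the scaling between libraries cancels. In control ECs *Flt4* was 53.3 to 65.6% of the summed RPKM of *Kdr*, *Flt1* and *Flt4*, and in HSC-KO ECs 34.0 to 42.0%. *Flt1* was 4.23 to 6.45% in control ECs and at least 16.8% in HSC-KO ECs. In livers *Flt4* was 30.6 to 34.5% in controls and 10.3 to 13.5% in HSC-KO, and *Flt1* 8.13 to 9.61% and 22.2 to 25.4%. The ratio of *Flt4* to *Flt1* per kilobase thus lay between 8.27 and 15.4 in control ECs, 1.62 and 2.50 in HSC-KO ECs, 3.43 and 3.95 in control livers, and 0.408 and 0.560 in HSC-KO livers. *Flt1* to *Kdr* was 0.139 to 0.160 in control ECs and 0.133 to 0.167 in control livers, and 0.392 to 0.468 and 0.341 to 0.395 in HSC-KO. No library of a control group reached the range of its HSC-KO group in these shares of *Flt1* and *Flt4*. The summed receptor level was 692 to 992 RPKM in control ECs and 423 to 452 in HSC-KO ECs. These ratios reuse the counts of the comparisons above and were given no test.

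**Figure D3:**
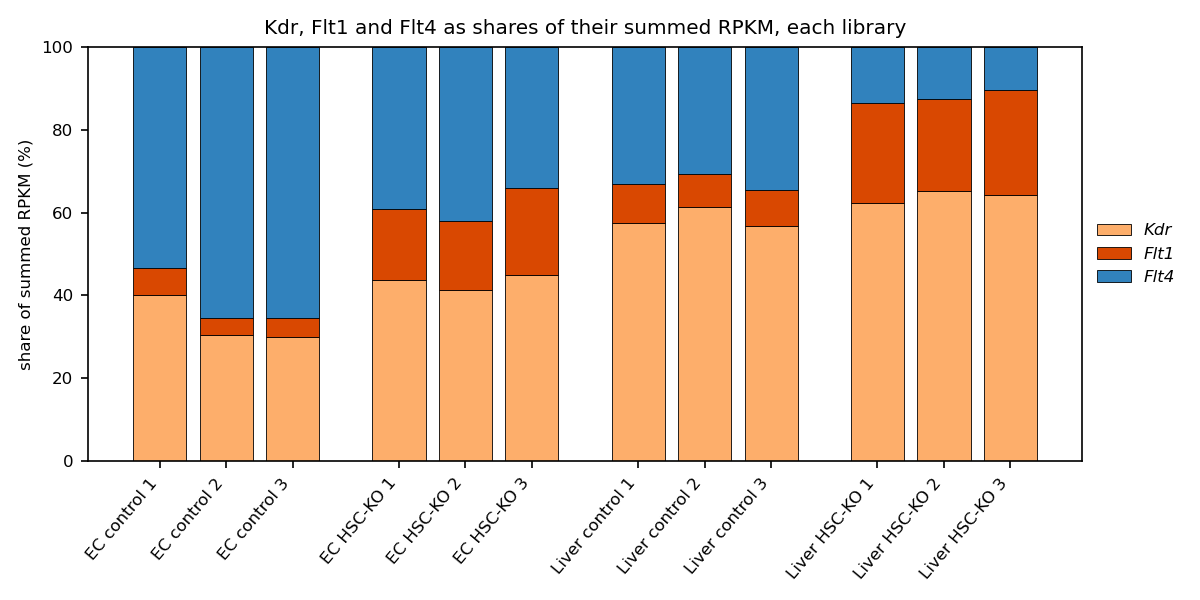
Share of *Kdr*, *Flt1* and *Flt4* in their summed RPKM (%, vertical axis) for each EC and liver library. *Flt4* (blue, top) took 53.3 to 65.6% in control ECs and 10.3 to 13.5% in HSC-KO livers, and *Flt1* (dark orange) took 4.23 to 6.45% in control ECs and at least 16.8% in HSC-KO ECs.

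In macrophages of HSC-KO mice both coreceptor genes and *Vegfb* were higher. *Nrp1* was at 156, 182 and 164 CPM in control macrophages and at 386, 428 and 363 in HSC-KO. The groups lay well apart, and *Nrp1* rose 2.34-fold (log2 1.23, SE 0.12, adjusted p = 0.00057). *Nrp2* went from 1.84, 5.66 and 5.14 CPM to 21.9, 13.3 and 16.0 CPM, a 4.05-fold rise (log2 2.02, SE 0.42, adjusted p = 0.014), and its call was lost without HSC-KO replicate 1 (adjusted p = 0.054). *Vegfb* went from 6.77, 7.79 and 5.84 CPM to 20.1, 15.5 and 17.6 CPM, a 2.60-fold rise (log2 1.38, SE 0.18, adjusted p = 0.0019). None of these 3 genes was shown to exceed a log2 fold change of 1 when the test was set against that size (glmTreat, adjusted p = 0.17, 0.10 and 0.12). *Pgf* had 3, 4 and 26 counts in controls and 69, 198 and 92 in HSC-KO, without overlap, and did not pass (log2 2.89, SE 1.02, adjusted p = 0.090). Without control replicate 3 its log2 fold change was 4.92 and it was a DEG (adjusted p = 0.010). DESeq2 called it as well (adjusted p = 0.018). In all, 4 of the 7 members tested had groups that did not overlap, as had 40.3% of all genes. Of the other cell lists, the 4 platelet markers (of which 1, *Pf4*, was over 1 CPM) summed to 49.1 to 69.4 CPM in control and 548 to 964 in HSC-KO macrophages, lymphocyte markers summed to 11.4 to 24.3 CPM in control and 38.2 to 119 in HSC-KO macrophages, and macrophage markers to 47753 to 50449 and 27532 to 30457. In the macrophage sum *Clec4f*, which the study counts among Kupffer cell identity genes, went from 10806 to 12168 CPM to 3.24 to 16.4. *Vsig4*, *Timd4*, *Adgre1*, *Csf1r*, *Cd68*, *C1qb* and *C1qc* were lower too without overlap. *Ptprc* was higher (505 to 567 and 799 to 929 CPM), and *Lyz2*, *C1qa* and *Fcgr1* overlapped. The part of these lists in these values was not tested.

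The receptor genes were low in these macrophages. *Flt4* was at 3.12, 74.8 and 41.5 CPM in controls and at 1.04, 1.05 and 10.7 in HSC-KO (log2 -3.22, SE 1.26, adjusted p = 0.12). *Kdr* was at 1.43, 39.1 and 23.5 CPM and at 1.56, 3.74 and 7.01 (log2 -2.38, adjusted p = 0.15), and *Flt1* at 0.858, 9.65 and 4.78 CPM and at 0.373, 0.885 and 3.35 (log2 -1.73, adjusted p = 0.26). All 3 varied together between the control libraries and overlapped between the groups. With the pan-endothelial level of each library as a covariate the log2 fold changes of *Kdr* and *Flt1* turned to 0.35 and 0.13, and that of *Flt4* was -0.77 (adjusted p = 0.33). The covariate was the log2 of the summed CPM of the pan-endothelial genes. *Eng* alone held 61.5, 45.2 and 66.5 CPM of sums of 74.5, 54.1 and 121 in HSC-KO, so there the covariate mostly followed *Eng*. In the same fit *Vegfb* (1.44), *Nrp1* (1.26) and *Nrp2* (2.82) were called, with adjusted p = 0.010, 0.0054 and 0.0051. Calls moved with single libraries: *Kdr* was called without control replicate 1 (-2.94, adjusted p = 0.017) and *Flt4* without HSC-KO replicate 3 (-5.25, adjusted p = 0.041). Over the 6 fits that left out 1 library *Flt4* ranged from -5.25 to -2.40, *Kdr* from -3.01 to -1.61 and *Flt1* from -3.02 to -0.88. With all 24 libraries in 1 fit *Kdr* and *Flt4* were called (adjusted p = 0.020 and 0.012).

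Endothelial transcripts in the macrophage libraries were therefore measured beside the members. For each of 12 pan-endothelial genes the level in a macrophage library was taken as a percent of its mean in ECs (of the HSC-KO ECs for HSC-KO macrophages, otherwise of control ECs). The ratio of the summed CPM, fixed as the measure, was 0.480 to 2.09% in control, 0.506 to 1.13% in HSC-KO, 4.05 to 14.6% in Smad4FF and 11.1 to 14.1% in Smad4 cKO libraries. The median over the 12 genes, chosen after the data were seen because *Pecam1* and *Eng* were present where the other markers were low, was 0.107, 1.81 and 1.18% in the control libraries and 0.0626, 0.0519 and 0.430% in HSC-KO. In Smad4FF it was 12.3, 3.06 and 11.0%, and in Smad4 cKO 10.9, 11.7 and 9.65%. Taken the same way, *Kdr* was at 0.0561, 1.53 and 0.918% of its EC level in control macrophages, *Flt1* at 0.149, 1.68 and 0.831%, and *Flt4* at 0.0708, 1.69 and 0.940%. In HSC-KO macrophages *Kdr* was at 0.0909, 0.218 and 0.409%, *Flt1* at 0.0344, 0.0817 and 0.309%, and *Flt4* at 0.0751, 0.0761 and 0.775%, so that *Kdr* in replicates 1 and 2, *Flt1* in replicate 2 and *Flt4* in all 3 stood above the marker median of their library. Against the summed ratio, the fixed measure, of 0.696, 0.506 and 1.13%, these receptor genes stood below it in every HSC-KO library. In Smad4FF and Smad4 cKO macrophages together, *Kdr* lay between 2.34 and 9.23%, *Flt1* between 2.09 and 10.5% and *Flt4* between 2.46 and 12.3%. In all 12 libraries *Kdr*, *Flt1* and *Flt4* lay between the lowest and the highest of the 12 endothelial markers. The lowest marker was at 0% in control replicate 1 and in all 3 HSC-KO libraries, so no gene could fall below it there. *Vegfc* lay between 2.47 and 10.1% in the 6 libraries of the Smad4 experiment. *Nrp1* stood above the marker median in all 12 libraries, at 8.18 to 9.54% in control and 24.6 to 28.9% in HSC-KO macrophages, and *Vegfb* likewise, at 278 to 361% in HSC-KO macrophages. *Nrp2* stood above the marker median in HSC-KO macrophages, at 3.08 to 5.06%, and close to it in the Smad4 experiment, at 3.07 to 11.8%. At the median share ECs would carry 0.767 to 6.36 CPM of *Nrp1* into the HSC-KO macrophage libraries, which held 363 to 428 CPM. In the 6 libraries of the Smad4 experiment the carried level of *Nrp1* would be 58.4 to 236 CPM beside 167 to 329 CPM observed, and that of *Pgf* no more than 0.0147 CPM. By the summed ratio, which was above the median in every library, the carried levels would be higher. In Smad4FF *Nrp1* was at 15.2, 8.73 and 14.2% of its EC level beside summed ratios of 14.6, 4.05 and 13.5%. In Smad4 cKO it was at 16.4, 14.6 and 17.3% beside 14.1, 13.7 and 11.1%. The highest of the 12 markers was at 3.79 to 8.75% in the 6 libraries of the HSC-KO experiment.

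**Figure D4:**
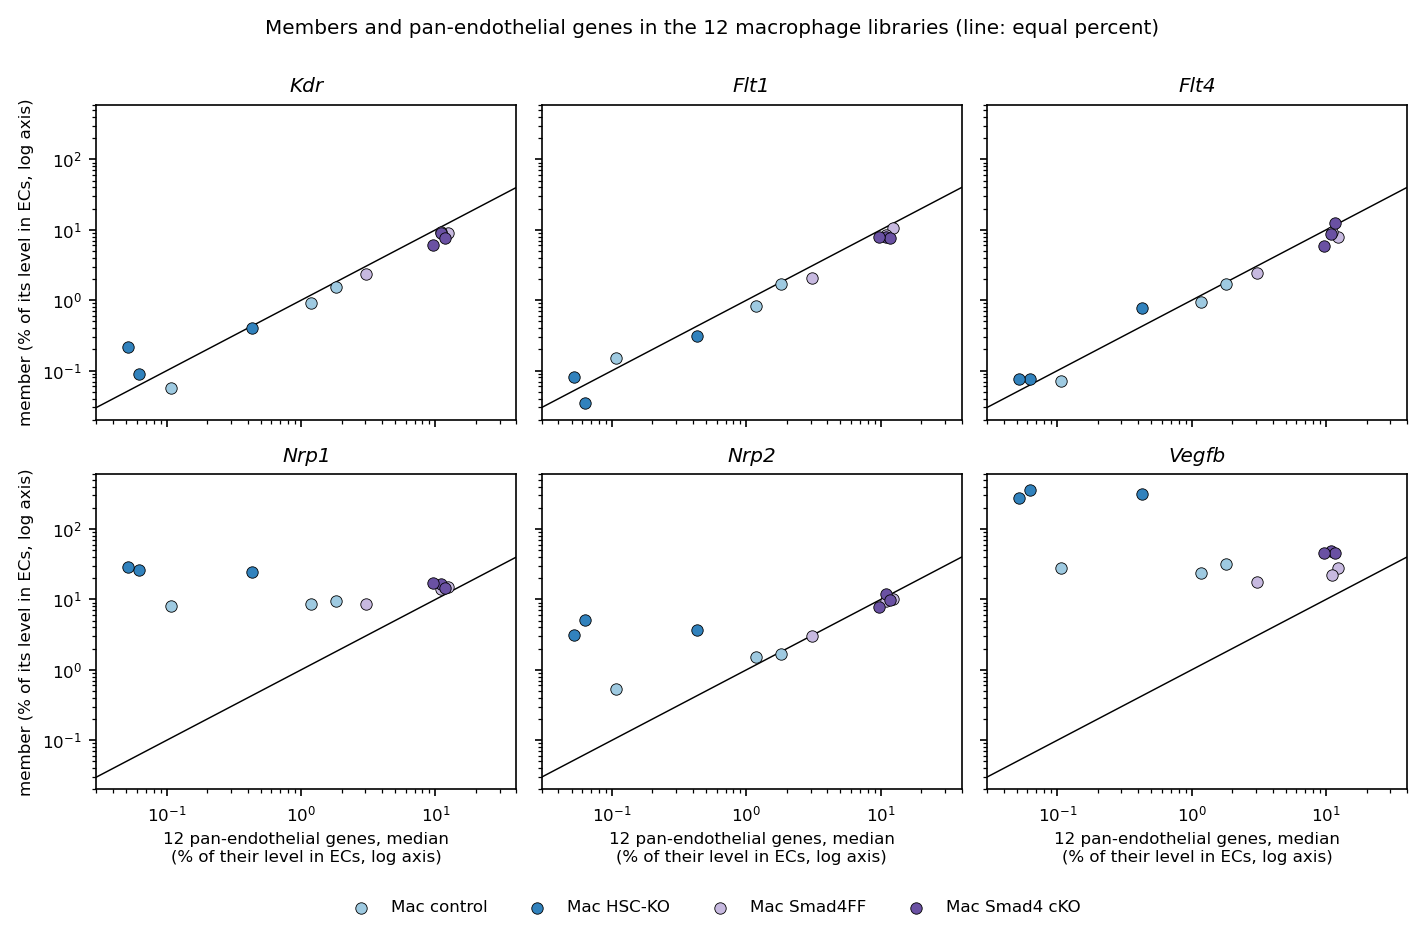
Level of 6 members in each of the 12 macrophage libraries as a percent of their level in ECs (vertical, log axis), against the median of the same percent over 12 pan-endothelial genes (horizontal, log axis). The line marks equal percents. *Kdr*, *Flt1* and *Flt4* lay on both sides of the line, *Kdr* in HSC-KO replicate 2 at 0.218% against 0.0519%, while *Nrp1* and *Vegfb* lay above it in all 12 libraries.

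In Smad4 cKO macrophages 2 ligand genes were higher. *Vegfb* was at 6.85, 4.35 and 5.48 CPM in Smad4FF and at 11.9, 11.1 and 11.2 CPM in Smad4 cKO, a 2.09-fold rise (log2 1.06, SE 0.20, adjusted p = 0.018). *Pgf* had 6, 38 and 26 counts in Smad4FF and 350, 419 and 156 in Smad4 cKO, that is 0.0611, 0.413 and 0.249 CPM against 3.51, 3.44 and 1.81, a 12.4-fold rise (log2 3.63, SE 0.64, adjusted p = 0.015). The groups did not overlap for either gene, as for 29.4% of all genes tested. Both calls were lost without Smad4FF replicate 3 (adjusted p = 0.090 for *Vegfb* and 0.082 for *Pgf*) and without Smad4 cKO replicate 1 (0.076 and 0.061), and that of *Vegfb* also without Smad4FF replicate 2, at a log2 fold change of 0.91. With the pan-endothelial level as a covariate *Vegfb* gave 0.95, and with all 24 libraries in 1 fit *Pgf* was not called (adjusted p = 0.19). Marker sums differed between the same groups without overlap: macrophage markers were at 52850 to 63868 CPM in Smad4FF and 24533 to 31905 in Smad4 cKO, platelet markers at 53.5 to 82.6 and 283 to 413, cholangiocyte markers at 4.23 to 5.51 and 10.0 to 21.4, and stellate and mural markers at 208 to 244 and 144 to 192. Single genes made up much of these sums. *Clec4f* went from 11375 to 14938 CPM to 0.0328 to 1.43, while *Ptprc* was higher and *Csf1r*, *Cd68*, *Fcgr1* and *C1qa* overlapped. The platelet sum was mostly *Pf4* (52.0 to 81.4 and 282 to 412 CPM). The cholangiocyte genes *Krt19*, *Epcam* and *Sox9* stayed at or under 0.468 CPM. Of the stellate and mural genes only *Ecm1* and *Hgf* were apart. The part of these lists in the values was not tested. *Nrp1*, which rose in HSC-KO macrophages, was at 290, 167 and 271 CPM in Smad4FF and at 312, 279 and 329 in Smad4 cKO (log2 0.37, 95% interval -0.11 to 0.86, adjusted p = 0.37). Smad4FF replicate 2, its lowest library, was also the one with the fewest endothelial transcripts. *Nrp2*, *Kdr*, *Flt1*, *Flt4* and *Vegfc* gave log2 fold changes between -0.07 and 0.49 with adjusted p of 0.63 to 0.96, and *Vegfa* had 3 to 25 counts.

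Whether a response differed between cell types was tested as the difference of log2 fold changes in a fit of both experiments. ECs and macrophages of HSC-KO mice differed for *Vegfb* by -3.52 (ECs minus macrophages, SE 0.37, adjusted p = 0.00013), for *Nrp1* by -1.61 (SE 0.20, adjusted p = 0.00038) and for *Nrp2* by -1.69 (SE 0.49, adjusted p = 0.039), where 12.3% of all genes passed and 6.29% did so with a lower value in ECs. The call of *Nrp2* was lost in 9 of 12 fits that left out 1 library. Libraries of both cell types that share a label code were treated as separate in this fit. ECs and livers differed for *Vegfb* alone, by -2.18 (SE 0.34, adjusted p = 0.0028, against 6.48% of all genes and 2.63% in this direction). Livers mix cell types and came from older mice (12 weeks against 8 to 10), which cannot be told apart from the response. For *Flt4* the difference between ECs and livers was 0.12 (95% interval -0.67 to 0.92) and for *Flt1* -0.15 (-0.62 to 0.32). HSC-KO and Smad4 cKO macrophages differed for none of the 9 members by edgeR (0 calls, 2.68% of all genes), with 4 at an unadjusted p under 0.05 and 0 calls by DESeq2. *Nrp1* came nearest (0.90, SE 0.25, adjusted p = 0.085), and without Smad4FF replicate 2 it was called, at 1.05. *Flt4* gave -3.67 (adjusted p = 0.23), and without HSC-KO replicate 3 it was called, at -5.70 (adjusted p = 0.047). For *Vegfb* that difference was 0.36 (95% interval -0.22 to 0.94) and for *Pgf* -0.66 (-3.35 to 2.02).

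Other genes of the pathway were read in 6 lists. Over all lists 15 of 74 genes tested were called in HSC-KO ECs, that is 20.3% beside 13.7% of all genes, and 8 of 77 in HSC-KO livers, that is 10.4% beside 2.48%. Leaving out 1 library gave 14 to 20 in ECs and 1 to 10 in livers, so the liver calls named below moved with single libraries. The counts of the single lists below are to be read against the same shares of all genes. The lists were chosen with earlier results of these data known, so these shares are descriptions. Of 11 genes known to be induced by VEGF in ECs, 10 were tested in HSC-KO ECs, and 3 rose and 2 fell. *Apln*, the ligand of the apelin receptor, rose by 6.74 on the log2 scale (adjusted p = 1.9e-05), from 0.542 to 0.713 CPM in controls to 49.6 to 78.0 CPM. *Esm1*, a tip cell proteoglycan that binds VEGF, rose from 7.89 to 22.5 CPM in controls to 201 to 239.8 CPM (adjusted p = 0.00062), and the guidance receptor gene *Unc5b* by 2.41. The calcineurin inhibitor gene *Rcan1* and *Hlx* fell. In livers *Apln* and *Esm1* rose by 6.58 and 4.35 and none of the 10 fell. The median of the list was 0.52 in ECs and 0.16 in livers, beside medians of 0.00 and -0.01 over all genes.

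Of 7 class 3 semaphorin genes, whose proteins bind neuropilins, 5 were tested in ECs and 6 in livers. *Sema3g* rose in ECs (5.75, adjusted p = 2.8e-05) and livers (4.27, adjusted p = 0.024), and none of those tested fell. Among 16 genes of receptor partners and modulators, 2 rose and 2 fell in ECs. *Cd93*, a C-type lectin domain gene of ECs, rose by 1.46, and *Thbs1* by 2.78. *Clec14a* and the integrin gene *Itgb3* fell by 1.58 and 3.79. In livers 3 of the 16 rose, with *Cd93* at 1.63, the vasohibin gene *Vash1* at 1.89 and *Thbs2* at 1.61, and 2 fell, *Clec14a* and *Ptprb*. Of the 33 genes downstream of the receptors 32 were tested in ECs. *Hspb1*, *Iqgap1* and *Nck2* rose by 3.69, 1.41 and 3.70, the protein kinase C gene *Prkcb* fell by 6.18, and 28 were not called. In livers 0 of 33 were called by both thresholds, with 1 past the adjusted p alone. Of 4 genes for VEGFC and VEGFD or their processing, *Adamts14* fell by 5.61 in ECs, where 3 were tested, and none was called of the 3 tested in livers and the 2 tested in each macrophage comparison. The oxygen-sensing genes, which regulate *Vegfa*, gave 0 calls in ECs (8 tested), livers (9 tested) and Smad4 cKO macrophages (9 tested), by adjusted p alone too.

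In HSC-KO macrophages 12 of the 70 genes tested over the 6 lists were called, 4 higher and 8 lower, which is 17.1% beside 11.7% of all genes. *Cdh5*, the gene of the endothelial cadherin that partners VEGFR2, fell by 7.40, from 193 to 281 CPM in controls to 0.760 to 2.66 CPM. The study counts *Cdh5* among the Kupffer cell identity genes that were lower in these macrophages. *Sdc2* fell by 4.31, *Rcan1* by 2.85, *Ptk2* by 2.62 and the hypoxia factor gene *Epas1* by 1.84, while *Cd93* rose by 5.60 and the adaptor gene *Sh2d2a* by 2.78. In Smad4 cKO macrophages 4 of 72 were called (5.56% beside 5.43% of all genes), all lower, with log2 fold changes of -4.63 for *Sdc2*, -2.72 for *Cdh5* and -2.02 for *Rcan1*. These 3 genes fell in both macrophage comparisons. The receptor-partner list had a median of -0.81 in HSC-KO and -0.19 in Smad4 cKO macrophages, beside 0.04 over all genes in each.

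Last, the genes whose log2 CPM followed each member most closely over the 24 libraries were listed, as a description (Pearson's r, 2 genes for each member). The libraries of a group share cell type and genotype, so the points are not independent. *Flt1* lay closest to *Robo4* (0.993) and *Apbb2*, *Kdr* to *Sox7* (0.991) and *Akap2*, *Flt4* to *Gpihbp1* (0.985) and *Tinagl1*, and *Vegfc* to *Fzd4* and *Thsd1* (both 0.973). *Nrp1* lay closest to *Tecpr1* (0.969), *Nrp2* to *Mfge8* (0.974) and *Vegfa* to *Ccbl2* (0.984). *Vegfb* and *Pgf* had no gene as close, with 0.861 for *D10Wsu102e* and 0.820 for *Rab11fip5*.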

How the data were processed

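Total counts per gene of 24 mouse RNA-seq libraries were analysed, 3 in each of 8 groups assigned from the sample labels. The authors, by their notes and methods, used HISAT2 for alignment to mm10 (GRCm38) and featureCounts for counting, and deposited 4 tables of raw counts, one whole number for each gene symbol and library. Program versions, annotation, strand setting and treatment of multi-mapping reads are not given in the sources used here. Their comparisons used DESeq2. The labels and the paper name different library kits. The members and gene lists were chosen with earlier results of these data known.

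Each comparison was fitted with edgeR 4.0.16 (glmQLFit and glmQLFTest, R 4.3.3) on the 6 libraries it is about, after filterByExpr (minimum count 10, minimum total 15) and TMM scaling, with Benjamini-Hochberg adjustment over all genes tested. Differences between responses were interaction terms over 12 libraries. A gene was called at an adjusted p under 0.05 and an absolute log2 fold change over 1. The SE was derived from the F statistic. Levels are CPM with TMM factors over all 24 libraries, and RPKM uses merged exons of GENCODE vM21, which may not be the authors' release. The exons of the members overlap no other annotated gene except 80 bases of *Nrp1* shared with *Mir1903*. The named genes were the 9 members, up to 3 called genes with the largest changes (mean log2 CPM of at least 1) for each list and comparison, the 2 most alike genes for each member and the deleted genes. *Adamts14*, *Thbs1*, *Nck2*, *Hlx* and *Ptprb* fall outside that rule, as do *Rcan1* in ECs and *Clec14a* in livers, and were named after their values were seen. One gene that the rule names is not reported here. The fits were tested on simulated counts. Depth was 60911527 to 110879155 counts for each library, and floors of 3 counts cover counting error only. No pair of replicates was alike within sampling noise (chi-square per degree of freedom of at least 100.7). Alternatives were DESeq2 1.42.0, other scalings and filters, glmTreat, each library left out, *Xist* or the pan-endothelial level as a covariate, all 24 libraries in 1 fit, and the replicate number as a block.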

Additional observations from a re-analysis of the deposited data

Results flagged for a closer look

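The response to HSC-KO differed between ECs and macrophages for *Vegfb*, *Nrp1* and *Nrp2*, by a test of the difference itself. ECs minus macrophages was -3.52 for *Vegfb*, which fell in all 3 HSC-KO EC libraries below the controls and rose in all 3 HSC-KO macrophage libraries. For *Nrp1* the difference was -1.61 and for *Nrp2* -1.69. *Vegfb* differed between ECs and livers too, by -2.18, its liver value being 0.09. Livers mix cell types, with pan-endothelial sums of 441 to 512 CPM in controls beside 12675 to 13948 in control ECs. They were also taken at 12 weeks and ECs at 8 to 10, which cannot be told apart from the response. The differences of *Vegfb* kept their calls in all 12 fits that left out 1 library (-3.77 to -3.25 against macrophages and -2.43 to -1.94 against livers), as did that of *Nrp1* (-1.69 to -1.53). That of *Nrp2* kept its call in 3 of 12 (-1.95 to -1.33). The endothelial share of the macrophage libraries overlapped between the groups, at 0.480 to 2.09% in control and 0.506 to 1.13% in HSC-KO by summed CPM and at 0.107 to 1.81% and 0.0519 to 0.430% by the median over 12 genes, and it was not entered in the test of these differences. Within macrophages the pan-endothelial level as a covariate left *Vegfb* at 1.44, *Nrp1* at 1.26 and *Nrp2* at 2.82, all called. That covariate was the log2 of the summed CPM, of which *Eng* held 61.5, 45.2 and 66.5 of 74.5, 54.1 and 121 CPM in HSC-KO. It mostly followed *Eng* there, and the median share was not used as a covariate.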

How the results depend on the processing

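*Xist* as a covariate was not run in the Smad4 comparison, where it had 0 to 3 counts in all 6 libraries. *Vegfb* and *Nrp1* in HSC-KO macrophages and *Flt1* and *Flt4* in livers kept their calls in all 6 fits that left out 1 library, as did *Vegfb* and *Flt4* in ECs. Set against a log2 fold change of 1 (glmTreat), 0 members were called in HSC-KO macrophages, 0 in Smad4 cKO macrophages, 1 in ECs (*Vegfb*) and 0 in livers, 3 between control macrophages and livers and 0 between the control macrophages of the experiments, and the other pathway genes called were 6 in HSC-KO macrophages and 2 in livers. With all 24 libraries in 1 fit the members called were 5 in HSC-KO macrophages, 1 in Smad4 cKO macrophages, 1 in ECs, 0 in livers and 5 between control macrophages, and the other pathway genes in HSC-KO macrophages 20. DESeq2 gave 2 for ECs minus livers and 5 between control macrophages. At least 10 counts in every library left 1 in Smad4 cKO macrophages, since *Pgf* was not tested there, and the pan-endothelial covariate left 1. *Xist* as a covariate gave 2 between control macrophages and livers. Library size alone gave 1 in livers. It moved the median log2 fold change of all genes from 0.04 to 0.13 in HSC-KO macrophages, from 0.04 to 0.19 in Smad4 cKO macrophages, from 0.00 to 0.30 in ECs and from -0.01 to -0.12 in livers, and the share of calls that were higher from 50.9 to 62.4% in Smad4 cKO macrophages and from 56.1 to 72.5% in ECs. The replicate number did not pair the samples (correlations of -0.11 to 0.16, although every EC library correlated best with its own number). As a replicate block it left the members called at 3, 2, 2 and 2 in the comparisons with controls and at 2 for ECs minus macrophages, and gave 4 other pathway genes in livers. Signs turned for these values, none of them called: with the pan-endothelial covariate *Kdr* and *Flt1* gave 0.35 and 0.13 in HSC-KO and -0.12 and -0.05 in Smad4 cKO macrophages, with library size alone *Vegfc* gave 0.08 in Smad4 cKO macrophages and -0.07 in livers, *Vegfb* -0.02 in livers, and *Kdr* and *Flt1* 0.03 and 0.21 for ECs minus livers, and *Vegfc* gave -0.02 in livers with all 24 libraries, 0.06 for ECs minus macrophages with the block and -0.68 for HSC-KO minus Smad4 cKO with *Xist*. Leaving out 1 library gave 2 to 4 members in HSC-KO macrophages, 0 to 2 in Smad4 cKO macrophages, 2 to 5 for ECs minus macrophages, 0 to 1 for HSC-KO minus Smad4 cKO, 7 to 8, 4 to 6 and 1 to 5 for control ECs against macrophages, macrophages against livers and between macrophages, and 1 to 10 other pathway genes in livers. Signs turned within these ranges for *Vegfc* (-0.50 to 0.48), *Kdr* (-0.25 to 0.43) and *Flt1* (-0.24 to 0.60) in Smad4 cKO macrophages, *Vegfc* in livers (-0.09 to 0.18), *Vegfa* (-1.09 to 4.23), *Pgf* (-2.43 to 1.17) and *Vegfc* (-0.99 to 2.20) for ECs minus macrophages, *Pgf* (-1.34 to 1.28) and *Vegfc* (-1.42 to 1.81) for HSC-KO minus Smad4 cKO, *Flt4* (-0.10 to 0.29) and *Pgf* (-4.20 to 3.61) for ECs minus livers, *Flt4* between control macrophages and livers (-1.28 to 0.10) and *Pgf* between control macrophages (-2.51 to 0.18). For all these the cause was not tested. Depth limits *Vegfa* in macrophages (0 to 25 counts), *Pgf* in livers (0 to 25) and control macrophages (3 to 26), and *Vegfc* in the macrophages of the HSC-KO experiment (0 to 35).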
